A study of Mus musculus with 45 samples.

Results

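Spic, Crxos and Crygd are 3 of the 23575 gene rows in the deposited expression table of a mouse reprogramming study, together with their 27 transcript rows of 276608. They were chosen by their measured CPM, as genes high in reprogrammed cells kept in 2i-LIF and much lower in the same cells kept in serum. There Spic and Crygd were near 0, and Crxos was low but detected. That difference selected them, so it is described here without a test. The study sequenced cDNA of mouse neural progenitor cells on the way to induced pluripotent stem cells with Oxford Nanopore long reads, in 45 bulk libraries. There were 22 libraries made by direct cDNA sequencing on R9 flow cells (R9 libraries) and 23 made by PCR cDNA sequencing on R10 flow cells (R10 libraries).

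All progenitor and factor-carrying cells came from O4G, an R1-derived embryonic stem cell line with a GFP reporter driven by the Oct4 promoter. The progenitors (4 R9 and 4 R10 libraries) grew in an EGF and FGF-2 medium and were wild type or carried 1 of 2 stably transfected systems, labelled OKMS-Luciferase-AS and OKS-Luciferase-AS, which differ by the Myc factor. Doxycycline at 1 µg/mL in serum with LIF (leukaemia inhibitory factor) switched the factors on, and 20 libraries followed these cells from day 2 to day 20. A further 3 libraries were wild type cells after 2 days in the same serum medium. In 5 libraries the factor cells were in 2i-LIF, which holds LIF, the GSK3 inhibitor CHIR-99021 and the MEK inhibitor PD0325901 in a serum-free base. The R9 ones (OKMS days 14 and 20, OKS day 20) entered 2i-LIF at day 6, and the day of the change is not given for the R10 ones (OKMS and OKS day 18). Doxycycline is named in the labels for serum and not for 2i-LIF, and whether it was kept in 2i-LIF is not given. The inhibitors, the base medium and possibly the factor induction thus change together and cannot be told apart. The 9 embryonic stem cell libraries, all wild type in 2i-LIF, were O4G (1 R9, 2 R10), R1 (1 R9, 3 R10) and R1-Clone3 (2 R10), the last a line named as 1 clone. The labels do not say that libraries of a group came from separate cultures, so p-values measure only the spread between these libraries, which may be technical.

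Library depth was 448250 to 1391635 reads in R9 and 567129 to 4245818 in R10, and the 2 R10 libraries in 2i-LIF at day 18 had the fewest reads of the R10 set. The R10 libraries fell into sets by mitochondrial share. It was 1.56% to 2.35% in 10 libraries (all day 18 cells and the numbered stem cells), 0.124% to 0.319% in the 5 libraries of wild type cells and of the R1 stem cell library without an n number, and 0.730% to 1.64% in the other 8. Levels are given as CPM, the reads of a gene scaled to the total of its library. In these bulk samples, fewer cells of a type and less RNA per cell cannot be told apart.

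Spic encodes Spi-C, a transcription factor of the Ets family known for its role in the red pulp macrophages of the spleen that recycle iron. Crxos is a homeobox gene named for lying on the opposite strand from Crx, the photoreceptor regulator, and is known from early embryos and embryonic stem cells. Crygd encodes gamma-D crystallin, a structural protein of the lens. In 2i-LIF the MEK inhibitor blocks signalling through ERK and the GSK3 inhibitor stabilises beta-catenin, a pairing used to hold mouse stem cells in the naive state of pluripotency.

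The deposited transcripts place the starts of the 3 genes, on mm10 (GRCm38). Spic lies on the minus strand of chromosome 10 (ENSMUSG00000004359.16, chr10:88674772-88685015 in GENCODE M21). All 11 of its deposited transcripts began with the same upstream first exon, whose inner edge was at 88684966, and the main one started at 88685079. Of 54 Spic transcripts assembled before filtering, 48 began within 100 bases of the annotated start of Spic-203 at 88685015 and 0 within 100 bases of the Spic-201 start at 88683023. Crygd lies on the minus strand of chromosome 1 (ENSMUSG00000067299.11, chr1:65061872-65063452), and its main transcript started at 65063569, upstream of the annotated 65063452.

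Crxos lies on the plus strand of chromosome 7 (ENSMUSG00000074365.13, chr7:15882617-15904020) and had 2 groups of starts. In 9 of its 14 deposited transcripts the first exon ended at 15896257, and in 4 it was an internal exon ending at or within 5 bases of 15901737. Of 90 Crxos transcripts assembled before filtering, 0 began within 100 bases of the most upstream annotated start at 15882617. The bases before the used Crxos and Crygd starts are printed here because these are the start regions that the data bear on. They are from RefSeq (GRCm38.p6), 5′ to 3′ on the gene's strand, and the 30 capitals at the end of each are the first bases of the main deposited transcript.
Crxos upstream start, chr7:15895874-15896123, plus strand: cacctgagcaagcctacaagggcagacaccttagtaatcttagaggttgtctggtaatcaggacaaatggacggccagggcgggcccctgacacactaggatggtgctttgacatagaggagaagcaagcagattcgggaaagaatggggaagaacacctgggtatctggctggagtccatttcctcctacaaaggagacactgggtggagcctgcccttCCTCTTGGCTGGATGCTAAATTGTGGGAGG
Crxos internal start, chr7:15901396-15901597, plus strand: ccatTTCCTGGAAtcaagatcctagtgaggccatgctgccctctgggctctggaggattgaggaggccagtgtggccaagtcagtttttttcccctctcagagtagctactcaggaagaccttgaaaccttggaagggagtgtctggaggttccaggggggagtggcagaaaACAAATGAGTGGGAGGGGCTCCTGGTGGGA
Crygd start, chr1:65063540-65063690, minus strand: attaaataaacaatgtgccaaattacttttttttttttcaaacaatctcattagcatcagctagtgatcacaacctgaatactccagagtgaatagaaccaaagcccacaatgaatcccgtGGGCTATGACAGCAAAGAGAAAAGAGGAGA

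Of 6 motifs searched on both strands of the 300-base RefSeq windows of the 3 genes, 1 gave a match. The STAT motif TTCNNNGAA was found in the window of the internal Crxos start as TTCCTGGAA, also in capitals above, 168 bases before the start. It is in 8.30% of the 32851 promoter windows of the same length. The TATA box TATAAA (13.6% of windows), the Spi family PU box GAGGAAGT (3.2%), the TCF motif CTTTGAT (3.73%), the octamer ATTTGCAT (1.74%) and the Esrrb motif TCAAGGTCA (0.423%) had no match in these windows. The RefSeq window of Spic (chr10:88682974-88683273) held none of the deposited Spic starts.

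The first exons of Crxos carry different coding bases, printed 5′ to 3′ from GENCODE M21 with the start codon in capitals, because they are what tells the 2 open reading frames apart at their first codons.
Crxos-201, chr7:15896233-15896257, plus strand: ATGgaagcatctccacgttccctga
Crxos-205, chr7:15901704-15901737, plus strand: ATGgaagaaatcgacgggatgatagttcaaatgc
The first opens a frame of 246 codons and the second a frame of 142 codons.

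All 3 genes were detected in each of the 14 libraries in 2i-LIF, reprogrammed or embryonic, and rarely elsewhere. Spic had a read in 3 of the 31 other libraries, never more than 1 read. Crygd had a read in 2 of those 31, again 1 read each. Crxos was detected in 11 of them, with up to 20 reads. A count of 0 in a factor library in serum allows a level of up to 1.12 CPM in the deepest and 6.69 CPM in the shallowest, taking 3 reads as the limit and counting error only.

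**Figure D1:**
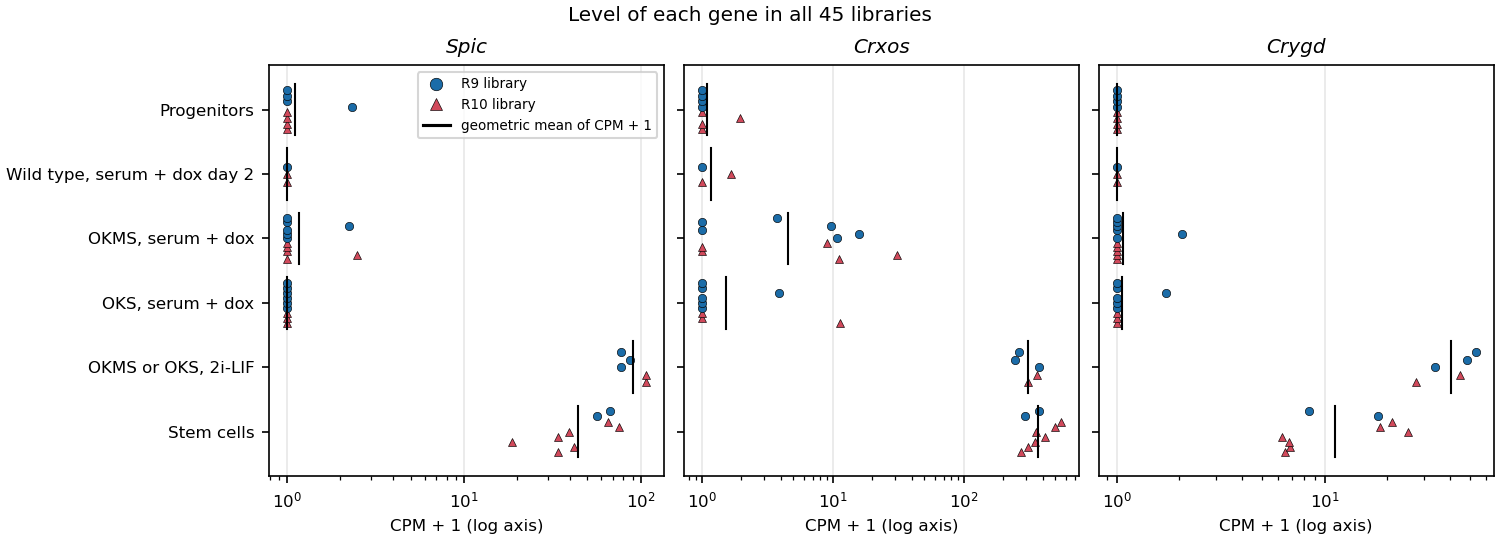
CPM + 1 of each gene on a log axis in all 45 libraries, 1 point per library (circles R9, triangles R10), with the geometric mean of CPM + 1 as a bar. The 2i-LIF and stem cell libraries of Spic and Crygd sit apart from all others, and Crxos has intermediate points of up to 29.7 CPM in serum.

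Spic stood highest in the reprogrammed 2i-LIF cells. Its level was 76.9 CPM in OKMS day 14, 86.0 in OKMS day 20 and 76.8 in OKS day 20 (R9), and 105.8 in OKMS and 106.4 in OKS at day 18 (R10). The mean was 90.4 ± 14.8 CPM (SD, n = 5). In stem cells the lowest was 17.6, the median 41.2 and the highest 74.5 CPM (mean 47.1 ± 18.9, SD, n = 9), so the ranges of the 2 groups did not overlap, though the gap between 74.5 and 76.8 was small. It lay within counting error, with 95% Poisson intervals of 65.7 to 84.2 and 59.4 to 97.7 CPM for these 2 libraries. The reprogrammed values selected the gene, which favours such a separation. How many other genes separated these groups was not counted. Serum and progenitor libraries followed at 0 to 1.48 and 0 to 1.35 CPM, and those 2 groups did not differ beyond their spread.

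Crxos had the same order with the top 2 groups exchanged. Stem cells ran from 270.1 through a median of 355.1 to 549.2 CPM (mean 377.5 ± 93.0, SD, n = 9). Reprogrammed 2i-LIF cells had 371.3 in OKMS day 14, 245.1 in OKMS day 20, 263.0 in OKS day 20, 306.8 in OKMS day 18 and 359.8 in OKS day 18 (mean 309.2 ± 56.3 CPM, SD, n = 5). These 2 groups overlapped. The 5 serum libraries paired with them by factors, day and chemistry had 13.2 ± 10.1 CPM (SD, n = 5), and the 8 progenitor libraries had 0 reads but for 1 wild type R10 library with 3 reads (0.953 CPM).

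Crygd was highest in reprogrammed 2i-LIF cells, at 33.0 CPM in OKMS day 14, 47.3 in OKMS day 20, 52.4 in OKS day 20, 26.4 in OKMS day 18 and 43.8 in OKS day 18 (mean 40.6 ± 10.6, SD, n = 5). Stem cells ran from 5.25 through a median of 7.45 to 24.3 CPM (mean 12.1 ± 7.57, SD, n = 9), below all 5. The nearest libraries, at 24.3 and 26.4 CPM, had overlapping 95% Poisson intervals (18.7 to 30.9 and 14.8 to 43.6). As for Spic, selection favours this separation, and its share over all genes was not counted. Serum libraries had 0 to 1.06 CPM, and all 8 progenitor libraries had 0 reads.

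In the 5 pairs of 2i-LIF and serum, every pair had the higher level in 2i-LIF for each gene. The mean difference in log2(CPM + 1) was 6.00 ± 0.62 for Spic, 4.73 ± 0.99 for Crxos and 4.97 ± 0.62 for Crygd (SD, n = 5 pairs). Of the 14935 genes tested, 5.95% were called higher in 2i-LIF, where a call needs a log2 difference of at least 1. How many genes had differences as large as those of Spic, Crxos and Crygd was not counted. The pair values chose the genes, and nothing is read from them. Summed over the 5 pairs, Spic went from 2 reads in serum to 337 in 2i-LIF, Crygd from 2 to 159 and Crxos from 53 to 1162.

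Because serum counts were so low, the size of the fold can only be bounded for Spic and Crygd. For Spic the exact 95% lower limits were 19.2-fold, 21.9-fold and 28.2-fold in the 3 pairs with no serum read (OKMS day 14, OKS day 18 and OKS day 20). In OKMS day 18, with 1 serum read, its ratio was 71.3 (95% exact interval 12.3 to 2863, counting error only), and in OKMS day 20 it was 69.8 (12.2 to 2793). For Crygd, with no serum read in OKMS day 18, OKS day 18 and OKMS day 20, these lower limits were 4.26-fold, 8.68-fold and 9.98-fold. The Crygd ratio was 31.3 (5.15 to 1280) in OKMS day 14 and 72.9 (12.4 to 2942) in OKS day 20, each with 1 serum read. Crxos had serum reads in every pair, so its ratios are measured. They were 10.3 (95% exact interval 6.49 to 17.3) in OKMS day 18, 35.1 (17.5 to 82.3) in OKS day 18 and 25.1 (14.8 to 46.5) in OKMS day 14. At day 20 they were 28.4 (13.6 to 71.5) in OKMS and 91.5 (35.3 to 338.8) in OKS.

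The size of the medium difference was also compared between the factor systems, as a description, since the same pair differences selected the genes. For Crxos the mean difference in log2(CPM + 1) was 4.19 in 3 OKMS pairs and 5.55 in 2 OKS pairs, a gap of -1.36 ± 0.49 (SE). For Spic the means were 5.67 and 6.51, a gap of -0.85 ± 0.77, and for Crygd 4.81 and 5.22, a gap of -0.41 ± 0.90. In the OKMS serum libraries of these pairs Crxos stood at 8.62 to 29.7 CPM, and in the OKS ones at 2.87 and 10.2 CPM. Over all 14935 genes, 0.0536% were called for such a gap, and none of the 3 genes was among them.

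During the serum time course Crxos was the only one of the 3 with a graded signal. Its first reads were at an earlier day in the OKMS libraries than in the OKS libraries. It had 0 reads through day 4 in both systems. In OKMS it was 2.73 CPM (R9, 2 reads) and 7.95 CPM (R10, 9 reads) at day 6, 9.85 and 10.2 CPM at day 10, 14.8 CPM at day 14 (R9), 29.7 CPM at day 18 (R10) and 8.62 CPM at day 20 (R9). In OKS it had 0 reads in the libraries of days 6, 10 and 14, then 10.2 CPM at day 18 (R10, 8 reads) and 2.87 CPM at day 20 (R9, 4 reads).

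At the 6 matched points of the same day and chemistry from day 6 on, Crxos was higher in OKMS each time. The 95% Poisson intervals were apart only at R9 day 14 (8.08 to 24.8 and 0 to 3.05 CPM) and R10 day 6 (3.63 to 15.1 and 0 to 1.57 CPM). They overlapped at days 6, 10 and 20 in R9 and day 18 in R10. How many genes were higher in OKMS at all these points was not counted. With 1 library per point there is no replicate check at any of them. Spic was at 0 in all OKS serum libraries and had single reads in OKMS at day 18 (1.48 CPM) and day 20 (1.23 CPM). Crygd had single reads in OKMS day 14 (1.06 CPM) and OKS day 20 (0.719 CPM). All these serum levels lay below the lowest 2i-LIF library of the gene.

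**Figure D2:**
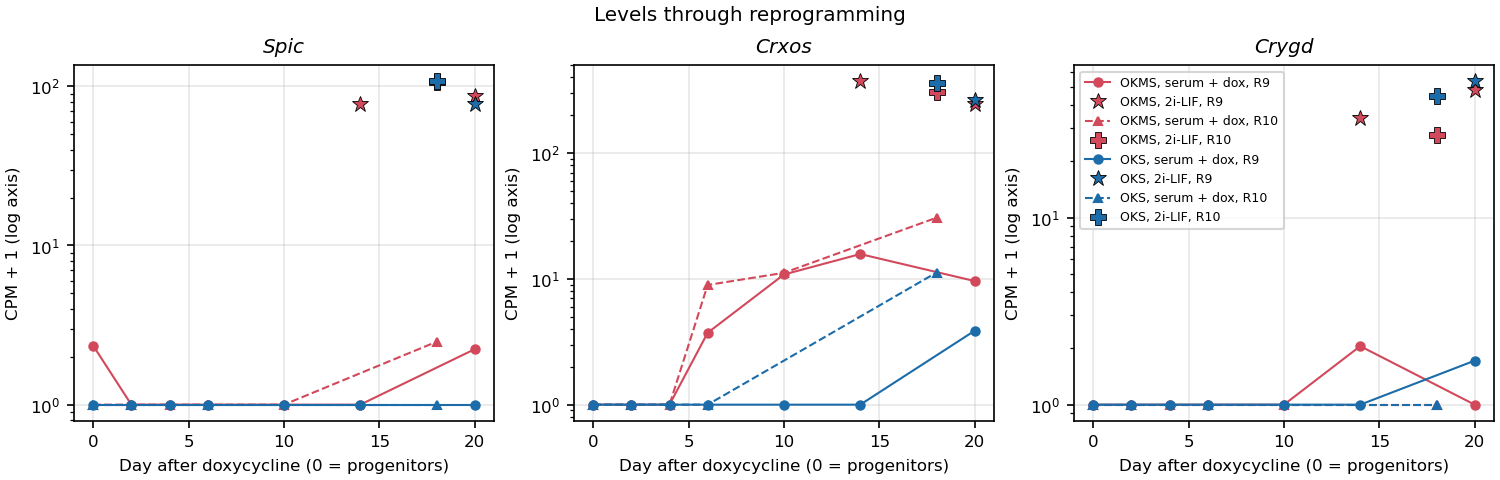
CPM + 1 on a log axis against day for OKMS (red) and OKS (blue) cells, serum as lines (R9 solid, R10 dashed) starting at the progenitors at day 0, and 2i-LIF libraries as stars (R9) or crosses (R10). Crxos in serum leaves 0 at day 6 in OKMS and reaches 29.7 CPM at day 18, below the 245.1 to 371.3 CPM of 2i-LIF.

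Stem cells against progenitors shares no library with the contrast between the media. The genes were chosen with earlier results of these data known, so this comparison cannot be taken as independent of their choice. Each gene passed the filter on low values only through its stem cell libraries, so a difference was fixed in advance and its size is given as a description, with no test. In R10 (7 against 4 libraries) stem cells were higher by 8.33 ± 0.22 (SE) for Crxos, 5.34 ± 0.31 for Spic and 3.44 ± 0.41 for Crygd on the log2(CPM + 1) scale. In that fit 45.8% of 15415 genes were called and 22.4% were called higher, and the median difference over all genes was 0.0059.

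The R9 libraries (2 against 4) gave 8.36 ± 0.27 for Crxos, 5.64 ± 0.46 for Spic and 3.63 ± 0.35 for Crygd, with 36.0% of 15746 genes called and 17.6% called higher. The log2(CPM + 1) scale understates such differences. Against the limit of 3 reads over the 4 R10 progenitor libraries, Spic was at least 153-fold and Crygd at least 42.5-fold higher in stem cells. In R9 Crxos was at least 343-fold and Crygd at least 12.7-fold higher. The R1 library without an n number shared its low mitochondrial share with the wild type progenitors, and this 1 library stood 5.30 above the mean of the 4 progenitor libraries for Spic, 8.23 for Crxos and 4.66 for Crygd. The part of the mitochondrial share in these differences was not tested. The comparisons that follow use these stem cell libraries again.

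Reprogrammed cells in 2i-LIF were then set against embryonic stem cells in the same medium. The values of the first arm selected the genes, which favours a higher value there, so the differences are described without a test. For Crygd the difference was 1.76 ± 0.38 (SE, log2), in a fit that called 3.36% of 14946 genes, 1.87% higher and 1.49% lower. Each of the 5 reprogrammed libraries had more Crygd than any of the 9 stem cell libraries. How many other genes separated the groups in this way was not counted. The Crygd difference was 1.69 ± 0.56 in R10 alone, 1.85 ± 0.36 in R9 alone and 1.89 ± 0.49 among the R10 libraries of high mitochondrial share.

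For Spic the difference was 0.96 ± 0.28, with 1.40 ± 0.39 in R10 alone and 0.39 ± 0.19 in R9 alone, so the chemistries gave different sizes. Crxos differed by -0.19 ± 0.17, and by 0.11 ± 0.16 when the O4G stem cells alone were used. O4G is the line from which the reprogrammed cells came. Against O4G alone the difference was 1.93 ± 0.31 for Crygd and 1.07 ± 0.21 for Spic.

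Among the stem cell lines, the clone R1-Clone3 had the highest level of each gene in the 6 numbered R10 libraries. Spic was 74.5 and 64.3 CPM in R1-Clone3, 33.0 and 41.2 in O4G, and 17.6 and 33.1 in R1. Crxos was 492.2 and 549.2 CPM in R1-Clone3, 349.4 and 413.1 in R1, and 270.1 and 307.4 in O4G. Crygd was 17.4 and 20.1 CPM in R1-Clone3, 5.42 and 5.82 in O4G, and 5.71 and 5.25 in R1.

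The genes were chosen with earlier results of these data known, so p-values between the lines cannot be taken as independent of that choice. For Spic, R1-Clone3 was 1.48 ± 0.24 above R1 and 0.89 ± 0.24 above O4G (SE, log2, limma adjusted p = 0.0018 and 0.0470). For Crygd it was 1.61 ± 0.27 above R1 and 1.58 ± 0.27 above O4G (limma adjusted p = 0.0022 and 0.0043), and O4G and R1 differed by 0.03 ± 0.27. The test over the 3 lines called both (limma adjusted p = 0.0040 for Spic and 0.0023 for Crygd), where 3.78% of 14750 genes were called. Crxos gave 0.85 ± 0.10 between R1-Clone3 and O4G (adjusted p over the 3 lines = 0.00065 in limma) and was not called, since no pair of lines reached a log2 difference of 1.

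The R1 library without an n number bears on this result. It had 38.5 CPM of Spic and 355.1 CPM of Crxos, near the other R1 libraries, but 24.3 CPM of Crygd, above both R1-Clone3 libraries. With it in the fit neither Spic nor Crygd was called (limma adjusted p = 0.235 and 0.433), and the genes called fell from 557 to 4. Without the first R1-Clone3 library the Spic call was also lost (1.37, adjusted p = 0.0774 in limma). The R9 stem cell libraries had 55.9 CPM of Spic and 17.0 of Crygd in O4G, and 66.1 and 7.45 in R1. For Spic O4G lay below R1 there, while in the numbered R10 libraries O4G had the higher mean (37.1 against 25.4 CPM).

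**Figure D3:**
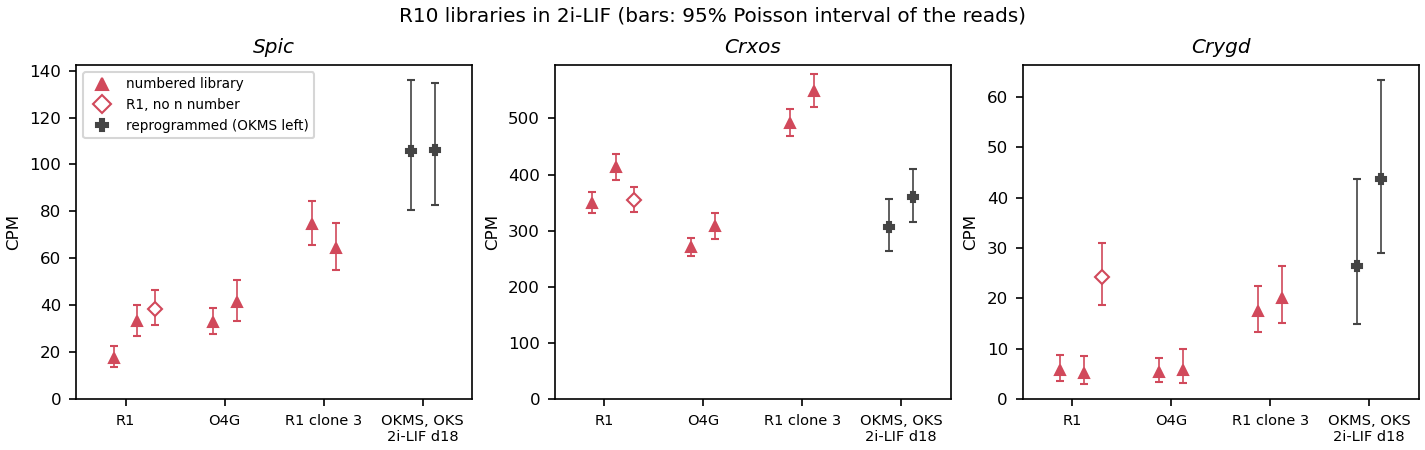
CPM of each gene in the R10 stem cell libraries by line and in the 2 R10 reprogrammed libraries in 2i-LIF, with 95% Poisson intervals of the reads. R1-Clone3 is highest among numbered stem cell libraries, and the R1 library without an n number (open diamond) is at 24.3 CPM for Crygd, apart from the other R1 libraries at 5.25 and 5.71.

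At the transcript level the deposited values are TPM, which are scaled by transcript length. Of the 27 transcripts, 24 reached a mean of 1 TPM in reprogrammed 2i-LIF or stem cell libraries (10 of Spic, 12 of Crxos and 2 of Crygd), and 3 did not. Per length, the summed level was highest for Crxos (660.5 ± 108.6 TPM in 2i-LIF reprogrammed cells, SD, n = 5), then Spic (110.6 ± 30.3) and Crygd (80.9 ± 16.1). In stem cells the sums were 766.5 ± 159.2, 59.8 ± 26.3 and 22.1 ± 12.8 TPM (SD, n = 9), in the same order.

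Spic transcripts differed in their 3′ ends and internal exons rather than in their starts. The most abundant, G5676.12, had 6 exons and a length of 1331 bases, with 36.7 ± 12.4 TPM in reprogrammed 2i-LIF cells and 19.8 ± 8.66 in stem cells. The 3 others named with the same 6-exon chain ended at other sites, namely G5676.3 (1798 bases, 12.9 ± 3.2 and 6.01 ± 2.67 TPM), G5676.30 (1009 bases, 19.7 ± 11.4 and 10.9 ± 7.08 TPM) and G5676.42 (611 bases, 11.2 ± 11.1 and 8.91 ± 7.25 TPM). The open reading frame called by the submitters had 242 residues in the first 3 of these and 149 in the shortest. G5676.54 (294 bases, 4 exons), classed in the deposited annotation as a 5′ fragment, had no frame called and 19.9 ± 25.2 and 8.41 ± 6.35 TPM.

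Variants that left out internal exons or kept an intron were rare. G5676.13, which lacks the second exon, had 3.55 ± 2.90 TPM in reprogrammed 2i-LIF cells and 1.56 ± 0.91 in stem cells. G5676.17, G5676.16, G5676.31 and G5676.29 had 1.07 to 1.87 TPM in the first group and 0.64 to 1.11 in the second. In the plot of transcript models G5676.16 keeps 1 intron and G5676.29 has an added exon.

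Most of the Crxos TPM lay in transcripts with the internal start. In TPM a read of a 668-base transcript weighs more than a read of a 964-base one. The part of reads cut short at their 5′ end was not tested. G45368.66 (3 exons, 668 bases, 142 residues), which matches Crxos-205, had 417.8 ± 69.2 TPM in reprogrammed 2i-LIF cells and 504.4 ± 94.99 in stem cells. G45368.3 (5 exons, 964 bases, 246 residues), which matches Crxos-201 and begins at the upstream start, had 156.0 ± 43.7 and 146.6 ± 55.3 TPM. Transcripts with the internal first exon held 66.9% ± 7.41 of the Crxos TPM in reprogrammed 2i-LIF cells and 71.4% ± 3.37 in stem cells, with ranges of 57.9% to 75.7% and 66.7% to 74.8% that overlapped.

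Other Crxos transcripts were minor. G45368.4, which joins the upstream exon straight to the last 2 exons, had 23.02 ± 12.4 and 22.6 ± 9.71 TPM and a frame of 139 residues. G45368.9, G45368.6 and G45368.7 start upstream and end within the gene, each with a frame of 120 residues, and had 14.5 ± 9.25, 9.44 ± 5.81 and 9.45 ± 5.15 TPM in reprogrammed 2i-LIF cells. In stem cells they had 17.96 ± 5.21, 14.8 ± 5.98 and 13.5 ± 3.55 TPM. The shortened internal-start transcript G45368.69 had 16.4 ± 6.62 and 25.1 ± 9.83 TPM. The remaining 5 named transcripts (G45368.82, G45368.8, G45368.85, G45368.88 and G45368.37) had 0.65 to 5.44 TPM in the first group and 1.47 to 11.5 in the second.

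In serum, 5 factor libraries had at least 20 TPM of Crxos, and the internal first exon made up 58.0% to 83.5% of it there (median 81.2%). These shares rest on few reads. Crygd had 1 main transcript, G1028.20 (3 exons, 760 bases, 228 residues called), with 79.6 ± 15.5 TPM in reprogrammed 2i-LIF cells and 21.2 ± 11.9 in stem cells. G1028.21, which keeps the first intron, had 1.28 ± 1.76 and 0.82 ± 1.04 TPM. A read-through transcript that joins Cryge to Crygd, counted as a gene of its own, had 4.12 ± 5.01 and 2.55 ± 3.99 TPM.

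**Figure D4:**
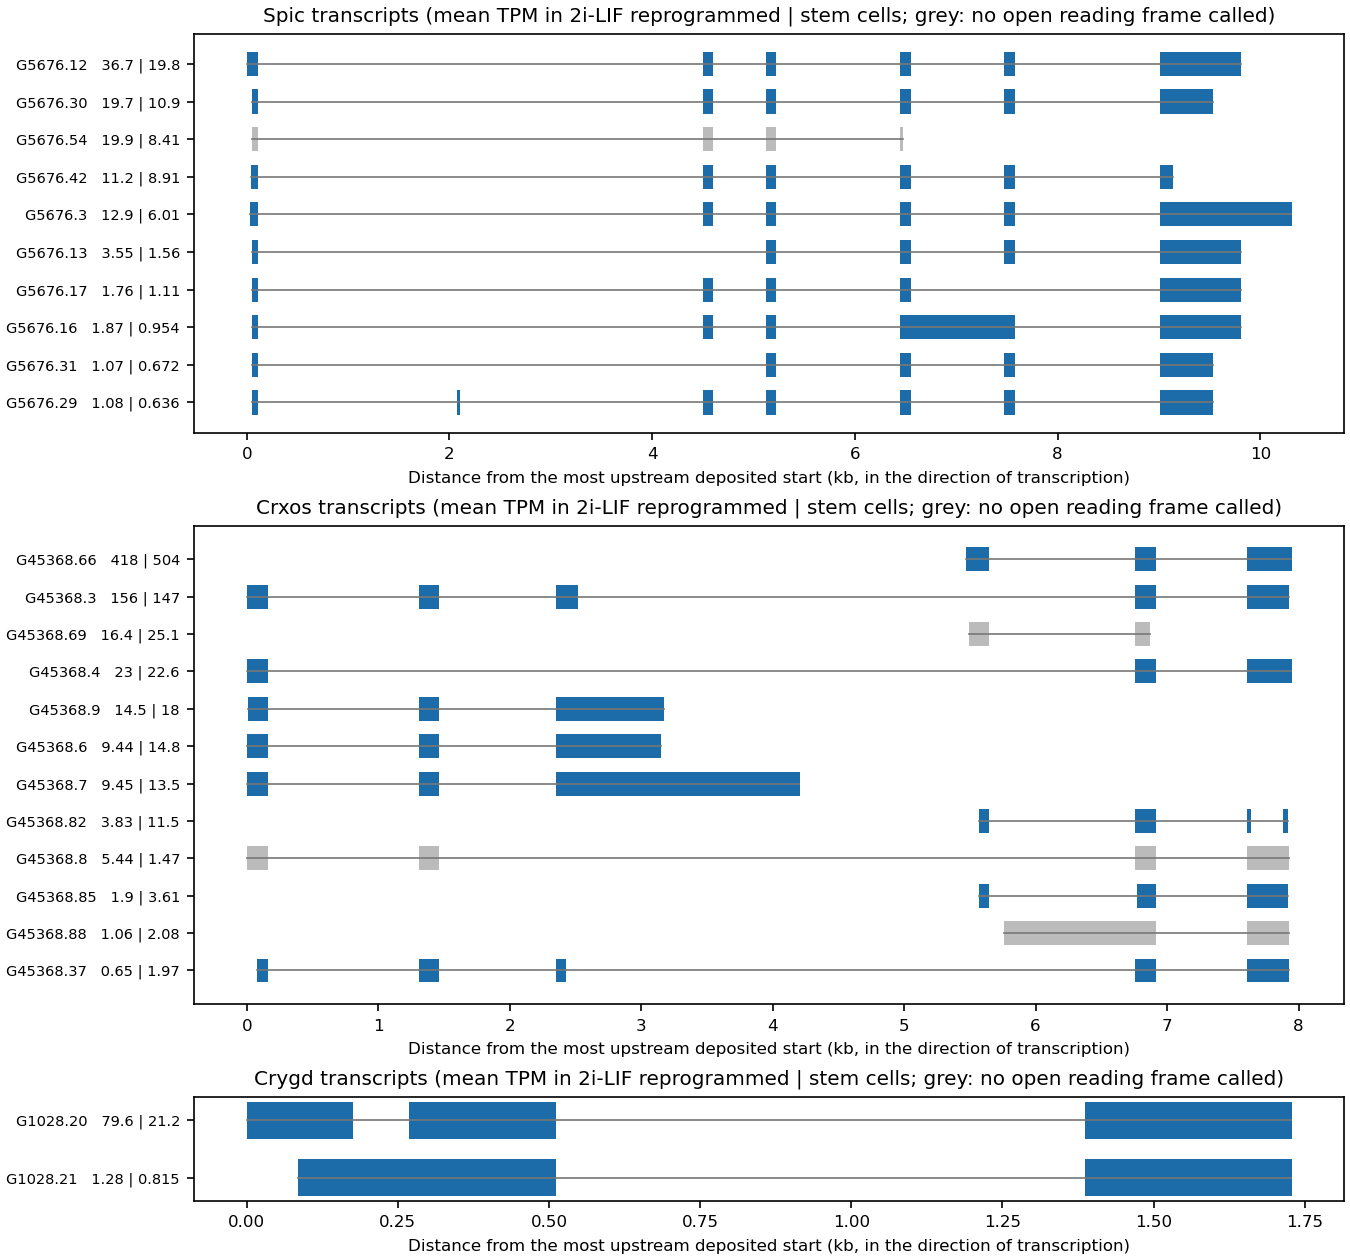
Exons (boxes) and introns (lines) of the named transcripts against distance in kb from the gene's most upstream deposited start, with mean TPM in reprogrammed 2i-LIF cells and in stem cells beside each name. All Spic models begin in the same first exon, while most Crxos models begin at 1 of 2 places more than 5 kb apart.

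Whether the most abundant transcript took the same share in both cell types was tested in R10 (2 against 7 libraries), where the smallest two-sided p that can be had is 0.0556. For Spic the share of G5676.12 was 23.1% ± 1.15 in reprogrammed cells and 32.4% ± 9.88 in stem cells (exact permutation p = 0.111, adjusted 0.333), and the difference of -9.34 points was -5.84 without the R1 library that has no n number. These are shares of TPM, in which a read of the 294-base G5676.54 weighs more than a read of the 1331-base G5676.12. The OKMS and OKS libraries of day 18 had 60 and 68 Spic reads. For Crxos the share of G45368.66 was 68.8% ± 2.20 and 66.2% ± 3.17 (exact permutation p = 0.333, adjusted 0.500). For Crygd the share of G1028.20 was 100% in both reprogrammed libraries and 98.1% ± 2.39 in stem cells (exact permutation p = 0.833, adjusted 0.833). This design could not reach 0.05 whatever the shares. Over both chemistries, with labels permuted within each, the differences were -1.72, -1.68 and 1.62 points (exact permutation p = 0.856, 0.556 and 0.433, smallest possible 0.0056), which does not show that the shares were alike. In R9 reprogrammed cells the Spic share was 67.2%, 42.1% and 24.98% in OKMS day 14, OKMS day 20 and OKS day 20, a wider spread than in R10, and its mean of 44.8% lay above the 38.9% of R9 stem cells, the opposite order to R10.

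Crygd lies in a row of gamma crystallin genes, and 3 of these neighbours were also higher in 2i-LIF than in serum. Cryge, 9513 bases away, had 35.3 ± 9.29 CPM in reprogrammed 2i-LIF cells, 0.898 ± 0.574 in the paired serum libraries, 9.97 ± 7.65 in stem cells and 0 reads in all 8 progenitor libraries. The difference was 4.29 ± 0.44 between the media (log2, SE) and 3.06 ± 0.45 between R10 progenitors and stem cells. For Crygc, 7959 bases away, and Cryga, 36824 bases away, it was 3.00 ± 0.49 and 2.17 ± 0.48 between the media. Like Crygd, the 3 passed the filter only through the groups where they were high, so these differences carry no test. They had 10.5 ± 5.34 and 5.09 ± 2.96 CPM in reprogrammed 2i-LIF cells, at most 2.69 and 1.48 CPM in paired serum and progenitor libraries, and 2.96 ± 2.53 and 2.69 ± 2.33 CPM in stem cells. Outside the medium comparison Crygc and Cryga followed Crygd in part. Between progenitors and stem cells they gave 1.59 ± 0.40 and 1.62 ± 0.38 in R10, but in R9 Crygc gave 0.66 ± 0.81. Neither was called among the stem cell lines (limma adjusted p = 0.430 and 0.102) or between reprogrammed cells and stem cells (limma adjusted p = 0.0510 and 0.354). The gamma crystallins are close in sequence, and how the submitters assigned reads between such copies is not given in the sources used here, so the split between them is uncertain.

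Cryge also followed Crygd across the stem cell lines, with 11.3 and 22.1 CPM in R1-Clone3, 17.6 in the R1 library without an n number and 3.28 to 4.48 CPM in the other 4 numbered R10 libraries. R1-Clone3 was 1.88 ± 0.34 above R1 for Cryge (log2, limma adjusted p = 0.0038), a call lost when the R1 library without an n number was added. Among the listed crystallins, 2 were called across the lines, in a fit that called 3.78% of 14750 genes. The number was 1 without either of the R1-Clone3 libraries in turn, and 0 with that R1 library. Over the 15 alternatives, 0 to 4 were called higher. Cryge was higher by 1.96 ± 0.44 in reprogrammed cells than in stem cells (limma adjusted p = 0.0139). Over 25 alternatives of that fit, 0 to 2 listed crystallins were called higher, so this call was not kept in all of them. Within 100 kb of Crygd, D630023F18Rik rose by 1.47 ± 0.41 and Idh1, the cytosolic isocitrate dehydrogenase, by 1.58 ± 0.17 between the media (limma adjusted p = 0.0222 and 6.7e-06). Akr1cl was at 0 in paired serum libraries and at 3.70 CPM in reprogrammed 2i-LIF cells. Idh1 was already at 216.7 CPM in progenitors and gave 0.17 from progenitors to stem cells in R10 (limma adjusted p = 0.397). Rpl10a-ps1 and novelGene_Rpl10a-ps1_AS gave 0.12 and -0.13 between the media (limma adjusted p = 0.841 and 0.646). Gm7329, Gm28845 and novelGene_Gm28845_AS were too low to be tested.

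**Figure D5:**
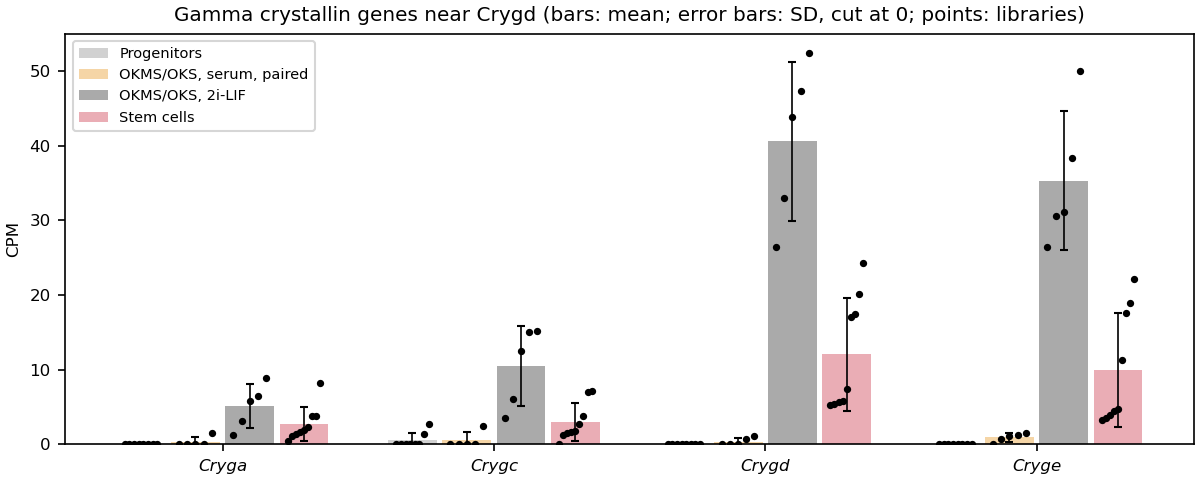
CPM of Cryga, Crygc, Crygd and Cryge in progenitors, paired serum libraries, reprogrammed 2i-LIF cells and stem cells, with the mean as a bar, SD as error bar (drawn down to 0 at most) and each library as a point. For each gene the mean is highest in reprogrammed 2i-LIF cells, at 35.3 CPM for Cryge and 40.6 for Crygd.

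Near Spic, Arl1 (45985 bases away, 0.11 ± 0.16) and Utp20 (61467 bases away, 0.16 ± 0.22) did not pass the test between the media (limma adjusted p = 0.733 and 0.696). Gm48106, 10434 bases away on the same strand, had 4.53 CPM in reprogrammed 2i-LIF cells, 1.87 in stem cells and 0 in the paired serum libraries, and was too low to be tested there. Its difference between R10 progenitors and stem cells was 1.21, also through stem cell libraries alone. Gm4925, novelGene_3571 and novelGene_Arl1_AS were too low for either test. Near Crxos, Selenow, Nop53 and Bicra lay within -0.07 to 0.03 of no difference (log2, limma adjusted p = 0.815, 0.892 and 0.978). Ehd2, 42919 bases away, fell by 1.73 on the log2 scale (SE 0.51, limma adjusted p = 0.0290). It had 1 read in each of the 5 reprogrammed 2i-LIF libraries (1.07 to 1.76 CPM), so the size of this fall rests on single reads there. The OKMS day 18 pair went the other way, from 1.48 CPM in serum to 1.76 in 2i-LIF. Obox6, another homeobox gene of the early embryo, differed by 1.32 ± 0.49 between the media (limma adjusted p = 0.0819) and by 2.10 between R10 progenitors, where it was near 0, and stem cells. novelGene_Ehd2_AS gave -0.53 ± 0.48 between the media (limma adjusted p = 0.529), and Gm24576 was too low to be tested. In stem cells against R10 progenitors Utp20 and Nop53 rose by 1.01 and 1.35 (limma adjusted p = 1.7e-05 and 2.0e-06), and Selenow gave -1.03 (limma adjusted p = 1.1e-05). Ehd2 and novelGene_Ehd2_AS, at 0.750 and 0.332 CPM in stem cells, gave -4.23 and -2.30, with no test since they were measured mainly in progenitors.

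Genes with the most similar pattern were found by the lower of 2 Pearson correlations of log2(CPM + 1), over 22 R9 and over 23 R10 libraries, among 10389 other genes with a mean of at least 5 CPM in reprogrammed 2i-LIF cells. For Spic they were the unannotated loci novelGene_Oas1f_AS (0.99), novelGene_Gm12947_AS (0.98), novelGene_Cd302_AS (0.98) and novelGene_28444 (0.98), and Bhmt2 (0.97), a methyltransferase gene. For Crygd they were novelGene_Cd302_AS (0.97), novelGene_Zdhhc14_AS (0.97), novelGene_28444 (0.97), Rhox2a (0.97), a homeobox gene of the X-linked Rhox cluster, and novelGene_Oas1f_AS (0.97). For Crxos they were Prdm14 (0.98), a regulator of naive pluripotency and germ cells, Tuba3a (0.97), Arl14epl (0.97), Mcf2 (0.97) and Dazl (0.97), a germ cell RNA-binding protein.

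Spic and Crygd ranked high for each other, with a likeness of 0.96 (rank 6 for Crygd and rank 17 for Spic). Crxos ranked 47 for Spic at 0.93 and 93 for Crygd at 0.89. In the other direction Spic ranked 75 and Crygd 283 for Crxos. These correlations describe the libraries, which share cell line, medium groups and depth differences. Spic, Crxos and Crygd were selected for a high level in 2i-LIF and a much lower one in serum. The correlations include the libraries that selected them. The selection thus favours a high likeness between these genes, and nothing is read from their ranks for each other. The level of the antisense loci cannot be told apart from that of their overlapping genes unless counting used strand, which is not given in the sources used here. Prdm14 had 52.4 CPM in reprogrammed 2i-LIF cells, 50.9 in stem cells and 6.14 in paired serum libraries, against 309.2, 377.5 and 13.2 CPM for Crxos.

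Lists of genes related to the medium and to the 3 families were read beside them, in the same paired fit, in which 5.95% of genes were called higher and 6.32% lower. Of 16 naive pluripotency genes, all tested, 11 rose in 2i-LIF and 0 fell (median 1.25, against -0.03 over all genes). Prdm14 rose by 2.93 ± 0.29, Nanog by 2.20 ± 0.15, Tfcp2l1 by 2.09 ± 0.26 and Klf2 by 1.58 ± 0.20 (log2, SE). Tcl1 and Tbx3 rose by 1.47 ± 0.18 and 1.46 ± 0.26. Nanog already stood at 262.1 CPM in paired serum libraries and at 1204 CPM in 2i-LIF, unlike Spic and Crygd, which were near 0 in serum.

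Of 12 genes induced by ERK signalling, 9 fell and 0 rose (median -2.18). Egr1, an immediate early factor, changed by -4.71 ± 0.37, the feedback inhibitors Spry4, Dusp4 and Dusp6 by -4.42 ± 0.59, -3.80 ± 0.53 and -3.60 ± 0.61, and Phlda1 and Ier3 by -3.17 ± 0.31 and -2.23 ± 0.42. Egr1 and Spry4 were at 1.24 and 1.97 CPM in 2i-LIF, against 60.9 and 55.3 in paired serum libraries. They passed the filter mainly through serum, so their falls, counted among the 9, are a description. Of 11 beta-catenin targets, 9 were tested and Notum rose by 2.10 ± 0.39. Lef1 was called lower (-2.52 ± 0.53), but at 0.448 CPM in 2i-LIF and 7.98 in serum it passed the filter through serum and had to differ. The others tested were not called. Rnf43, Nkd1, Sp5, Znrf3 and Axin2 gave -1.33, -0.83, -0.83, -0.62 and -0.14, and Cdx1 and Tcf7 gave 1.10 and 0.26. T, not tested, was at 0 CPM in 2i-LIF and 20.2 ± 28.3 in paired serum libraries (SD). With R10 pairs alone 5 naive genes rose and 1 ERK target fell, and with R9 pairs alone 6 and 9, from fits that called 188 and 1166 genes.

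Within the Ets family of Spic, 16 of 21 listed genes were tested, 1 rose and 2 fell. Elf3, an epithelial Ets factor, rose from 32.7 ± 21.9 to 141.4 ± 41.1 CPM (SD, n = 5), while Elk3 and Etv4 changed by -3.08 ± 0.50 and -1.14 ± 0.22. Etv4 is also on the ERK list. Spi1, which encodes PU.1, a relative of Spi-C, was at 2.6 CPM in reprogrammed 2i-LIF cells and 0.390 in paired serum libraries, and was too low to be tested. None of these lists gives a test of the 3 genes.

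Of 18 crystallin genes, 9 were tested, and the 3 called higher (Cryge, Crygc and Cryga) are those of the Crygd row, which had to differ to be tested. The 2 that fell lie outside it, Cryab, a small heat shock protein, by 2.66 on the log2 scale (SE 0.27, 165.4 to 25.1 CPM) and Crym by 2.21 (SE 0.69). Crym was at 1.31 CPM in 2i-LIF and 19.8 ± 25.1 in serum (SD). It was measured mainly in serum, so its fall is a description. Of 15 relatives of Crxos among homeobox and similar factors, 6 were tested and Gsc and Pitx1 were called higher, by 2.33 ± 0.57 and 1.67 ± 0.52, of which Pitx1, at 0.390 CPM in serum, passed the filter only through 2i-LIF and had to differ. Gsc ranged from 0 to 30.1 CPM among the 5 reprogrammed 2i-LIF libraries. Otx2, a relative of Crx, was at 18.1 and 21.1 CPM in 2i-LIF and serum (0.04 ± 0.53).

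Most listed markers of the tissues in which these genes are best known were absent or low, though some were detected. Of 12 macrophage markers, 6 were above 0 in reprogrammed 2i-LIF cells, and Adgre1, Csf1r, Ptprc, Lyz2, Fcer1g and Aif1 were at 0 or had no row. The summed level was 13.4 to 25.8 CPM there and 19.2 to 46.8 in paired serum libraries, most of it Cd68. Cd68 and Spi1 had means of 15.7 and 2.6 CPM in reprogrammed 2i-LIF cells, against 16.2 and 0.390 in paired serum libraries. Of 12 lens fibre markers, 3 were above 0 (summed 3.22 to 10.6 CPM, against 2.11 to 4.45 in serum), and Cryaa, Mip, Lim2 and Bfsp1 were at 0 or had no row. Crybb3 was the highest, at 3.37 CPM against 1.75 in paired serum libraries. This list leaves out the gamma crystallins, of which Cryge, Crygc and Cryga had 35.3, 10.5 and 5.09 CPM in reprogrammed 2i-LIF cells. Of the photoreceptor genes, Rom1 was the highest, at 1.26 CPM in reprogrammed 2i-LIF cells and 3.26 in paired serum libraries, and Crx, Nrl, Nr2e3, Opn1sw, Pde6b, Prph2, Rcvrn and Sag were at 0 or had no row.

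The 8 pluripotency markers were all detected, with a summed level of 9982 to 15877 CPM in reprogrammed 2i-LIF cells, 6222 to 15986 in paired serum libraries, 11275 to 13894 in stem cells and 51.2 to 89.1 in progenitors. The 8 neural progenitor markers summed to 5288 to 8316 CPM in progenitors and 253.6 to 932.7 in paired serum libraries. They summed to 121.7 to 233.1 CPM in reprogrammed 2i-LIF cells and 173.9 to 376.4 in stem cells, with Vim the highest. The progenitor and stem cell libraries thus each held their own markers. Of 8 primitive endoderm markers 3 were above 0 in reprogrammed 2i-LIF cells, and the list summed to 4.30 to 14.1 CPM in reprogrammed 2i-LIF cells and 12.2 to 39.4 in serum. Of 7 trophoblast markers 4 were above 0, and the list summed to 31.8 to 40.7 and 24.3 to 50.5 CPM, most of it Tfap2c, with Cdx2, Elf5 and Eomes at 0 or without a row. The part of these lists in the levels of Spic, Crxos and Crygd was not tested.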

How the data were processed

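The authors deposited CPM per gene and TPM per transcript, which are not counts. Reads were aligned with minimap2 2.24-r1122 to mm10, per the submitters' processing notes, and the counting tool's settings are not given in the sources used here. Whole reads could be recovered from 100% of the CPM values (within 0.02 of a whole number), which gave depth and the counting intervals. Transcript structures, frames and the percent of A downstream of transcript ends were read from deposited annotation, per the file headers, and 13 columns with no sample among those used were left out.

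CPM was tested as log2(CPM + 1) with limma 3.58.1 (R 4.3.3) over genes with at least 1 CPM in enough libraries for the smaller group, with calls needing both a log2 difference of at least 1 and an adjusted p (Benjamini-Hochberg) below 0.05. Stem cell lines used the 6 numbered R10 libraries, and 2i-LIF against serum used the pair as a block. Scripts were tested on simulated data, where the fit of reprogrammed against stem cells, whose arms differ in depth, made false calls among genes of low CPM. Alternatives were other pseudocounts, filters and scalings, edgeR 4.0.16 and DESeq2 1.42.0 on recovered reads, and leaving out libraries. Shares used libraries with at least 5 TPM of the gene and exact two-sided permutation tests, adjusted over 3 genes. Named were the 3 genes, their transcripts of at least 1 TPM, the 5 most similar genes each, all genes within 100 kb, and fixed lists (described by counts and examples). An item of the photoreceptor list, with the list's count and sum, is not reported here. The genes and lists were chosen with earlier results of these data known.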

Additional observations from a re-analysis of the deposited data

Results flagged for a closer look

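In 3 of 27 groups of libraries, 1 library lay far from the others, where chance gives about 1 in 20 groups. That rate does not hold for the 2 flags among progenitors, since with 3 libraries at 0 any read in the fourth is flagged. Spic was at 1.35 CPM in the R9 OKMS progenitor library, which is 1 read, and at 0 in the other 3 R9 progenitor libraries. Crxos was at 0.953 CPM, which is 3 reads, in replicate 2 of the R10 wild type progenitors and at 0 in the other 3. The main Spic transcript G5676.12 held 53.5% of the Spic TPM in the R1 stem cell library without an n number, above the other 6 R10 stem cell libraries.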

How the results depend on the processing

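Stem cells against progenitors gave a higher level of all 3 genes under each alternative run, 20 in R10 and 13 in R9. The filter fixed this in advance except in the run with no filter. Median centring moved the genes called in R10 from 3452 higher and 3615 lower to 4196 and 3013.

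For reprogrammed cells in 2i-LIF against stem cells, 502 genes were called, against 246 with a minimum of 5 CPM, 223 with edgeR, 300 with DESeq2, 1438 in R10 alone, 110 in R9 alone, 1896 in R10 libraries of day 18 and numbered stem cells, 115 against O4G alone, and 267 to 623 with 1 library left out (267 without OKS day 18). Spic, at 0.96 under the required log2 difference of 1, gave 1.01 after quantile normalization, 1.03 after median centring, 1.40 in R10 alone, 1.40 in R10 of day 18 and numbered stem cells and 1.07 against O4G, and gave 0.81 to 1.11 with 1 library left out. It crossed both thresholds without OKMS day 14, R9 R1 or either R1-Clone3 library. Crxos turned to 0.11 against O4G. Crygd, past both thresholds in the full fit, was not past them in R10 alone (1.69) or without OKS day 18 (1.63), and gave 1.56 to 1.93 with 1 library left out. These values include the libraries that selected the genes.

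For the stem cell lines, DESeq2 called 302 genes, the fit with the R1 library without an n number 4, and fits with 1 library left out 305 to 408 (305 without R1-Clone3 replicate 1). With that R1 library Spic gave 1.26 and Crygd 0.95, neither called, and Spic gave 1.04 to 1.91 with 1 library left out. Deviations from the line means correlated weakly between libraries with the same replicate number, at 0.073, 0.16 and 0.13, all above 0. A replicate block gave 874 genes called, against 557 without it, with the calls of the 3 genes as before. Whether the numbers mark a shared culture or batch was not tested.

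For 2i-LIF against serum, 1832 genes were called, against 1166 in R9 pairs, 188 in R10 pairs and 1210 to 1908 with 1 pair left out (1210 without R9 OKS day 20). Spic gave 7.41 with a pseudocount of 0.25, 7.24 with edgeR and 7.60 with DESeq2, and Crygd 6.44, 6.22 and 6.48. For OKMS against OKS, 8 genes were called in limma, 2 with that pseudocount, 15 after median centring and 0 to 13 with 1 pair left out. The 0 came without R9 OKS day 20 (679 genes at an unadjusted p under 0.05) and without R10 OKMS day 18 (761), where edgeR was not run. The Crxos share difference turned to -1.68 points over both chemistries. The cause of these shifts was not tested.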

Other observations

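Depth limits the low levels. Arms of unequal depth can shift calls among genes near 1 CPM, since a single read is worth 1.76 CPM in the shallowest R10 library, and Spic and Crygd serum levels of 1 read cannot be ordered. Each time point and factor system in serum or 2i-LIF had 1 library per chemistry. R9 and R10 differ in both library preparation and flow cell, which cannot be told apart.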
